A study of Caenorhabditis elegans with 2 samples.

Results

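Of the 2346 peaks in the optimal list of a chromatin immunoprecipitation sequencing (ChIP-seq) experiment on the homeobox protein CEH-82, 645 lay on an autosome with their summit upstream of the start of 1 protein-coding gene and no other such start within 500 bp. They made up 27.5% of the list (95% Wilson interval 25.7% to 29.3%) and belonged to 642 genes, since eat-16, mars-1 and unc-85 each had 2 of them. They are called single-start peaks below. They were chosen by position alone, with gene starts taken from the Ensembl annotation of WBcel235, which is the same assembly as ce11, and each distance is the position of the summit relative to the annotated start, negative upstream. The remaining autosomal peaks comprised 376 with at least 2 starts within 500 bp, 80 at or downstream of 1 start, and 814 with no start within that distance. On the X chromosome, 120 peaks lay upstream of 1 start.

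The study mapped where CEH-82, the product of ceh-82 (F45C12.2), sits on the genome of Caenorhabditis elegans at the first larval stage. Whole L1 larvae of unknown age and mixed sex were used, of strain OP212, whose genotype the labels spell unc-119(ed3) III; ddEx58, with F45C12.2 carrying GFP-FLAG at its C-terminus. There were 2 biological replicates and they formed 1 group, so no condition could be compared with another, and p-values were not calculated. An untagged strain was not analysed here, the antibody is labelled ceh-82 although the tag was GFP-FLAG, and the labels speak of an insertion while the genotype carries an array name, so which copy was precipitated is unclear. Because whole animals were used, binding in a few cells and weak binding in many cells cannot be told apart.

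Homeobox proteins bind DNA through a helical domain, and many of them recognise short A- and T-rich cores. In C. elegans most mRNAs lose their original leading end, called the outron, when a spliced leader RNA is joined to them by trans-splicing. The annotated start of such a gene can therefore be the splice acceptor, which ends in AG, and lie downstream of the site where transcription begins. Many genes also form operons, in which a promoter at the first gene drives a row of genes on the same strand, separated by short gaps, and the downstream mRNAs are released by trans-splicing.

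The sequences around the summits of the 5 strongest single-start peaks show the DNA at which the signal was centred. Each runs from 50 bp before to 50 bp after the summit in the 5′ to 3′ direction of the gene, read from the RefSeq WBcel235 genome with ce11 coordinates, and capitals mark the 6-mers GACGCA and CGCAAA or their reverse complements. The window at rpl-3 holds both 6-mers overlapping, and the window at rpl-35 holds neither.
rpl-3 (chrIII:3867523-3867623, plus strand): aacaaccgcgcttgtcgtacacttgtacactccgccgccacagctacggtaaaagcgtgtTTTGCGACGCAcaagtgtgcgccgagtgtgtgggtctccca
cdc-48.1 (chrII:10563515-10563615, minus strand): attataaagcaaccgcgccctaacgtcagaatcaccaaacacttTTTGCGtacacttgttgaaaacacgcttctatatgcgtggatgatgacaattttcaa
tasp-1 (chrIII:10759197-10759297, plus strand): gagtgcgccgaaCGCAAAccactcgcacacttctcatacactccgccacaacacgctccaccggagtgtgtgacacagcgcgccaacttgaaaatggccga
rpl-35 (chrIII:7854635-7854735, plus strand): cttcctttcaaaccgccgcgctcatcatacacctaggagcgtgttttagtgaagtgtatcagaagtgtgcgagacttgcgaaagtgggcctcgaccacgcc
rps-1 (chrIII:4475605-4475705, plus strand): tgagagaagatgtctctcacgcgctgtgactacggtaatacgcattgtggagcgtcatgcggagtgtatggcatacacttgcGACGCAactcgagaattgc

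The bases at the annotated starts of 7 of the strongest single-start peaks show the splice-acceptor dinucleotide that recurred among these genes. Each runs from 25 bp before the start to 5 bp after it, and capitals mark an AG that directly precedes the start. The first 4 genes have it and the last 3 do not. An AG that does not touch the start, such as the one close to the start of fbxl-2, is neither marked nor counted.
rpl-3 (chrIII:3867829-3867859, plus strand): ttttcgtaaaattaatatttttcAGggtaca
cdc-48.1 (chrII:10563402-10563432, minus strand): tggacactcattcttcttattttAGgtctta
rpl-35 (chrIII:7855109-7855139, plus strand): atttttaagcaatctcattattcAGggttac
rps-1 (chrIII:4475893-4475923, plus strand): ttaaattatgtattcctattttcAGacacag
tasp-1 (chrIII:10759282-10759312, plus strand): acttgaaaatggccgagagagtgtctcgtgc
iff-2 (chrII:8561362-8561392, minus strand): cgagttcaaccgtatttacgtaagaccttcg
fbxl-2 (chrIII:4757235-4757265, plus strand): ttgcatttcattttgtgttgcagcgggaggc

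The gaps between 2 of the bound genes and the next gene on the same strand show the short spacing described further below. Each is the whole stretch from the end of the upstream gene to the start of the downstream gene, and capitals mark an AG that directly precedes the downstream start. The gap after tasp-1 ends in AG, and that after sec-61.G does not.
tasp-1 to dpy-28 (chrIII:10763022-10763130, plus strand): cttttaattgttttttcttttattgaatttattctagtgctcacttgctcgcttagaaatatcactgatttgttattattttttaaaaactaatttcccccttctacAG
sec-61.G to F32D8.13 (chrV:10896544-10896657, minus strand): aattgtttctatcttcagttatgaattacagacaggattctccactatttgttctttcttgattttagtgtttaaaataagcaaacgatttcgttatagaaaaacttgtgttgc

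The strongest peak of the whole list was a single-start peak, at -281 bp from rpl-3 (chrIII:3867854-3869587), a gene for a ribosomal protein of the large subunit. Its deposited signal was 619.2, and it ranked 1 in replicate 1 and 1 in replicate 2. The peak at -158 bp from cdc-48.1, an AAA ATPase that extracts ubiquitinated proteins from complexes, followed with a signal of 552.5 and ranks of 3 and 2. The peak at -60 bp from tasp-1 had a signal of 443 and ranks of 7 and 8. Those of rpl-35 and rps-1, which encode proteins of the large and the small subunit, had signals of 439.7 and 398, with ranks of 15 and 6 and of 14 and 11. These 5 peaks were thus among the strongest 15 of both replicates. The signal is the authors' value for the pooled data in an undefined unit, so it has no replicate error and the rank in each replicate stands in its place.

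Signal ranged from 30.9 to 619.2 over the 645 peaks, with a median of 63.4 (95% interval from order statistics 58.3 to 68.2) and quartiles of 43.2 and 101. The median was 65.3 (60.0 to 71.2) for autosomal peaks shared by several starts, 55.5 (47.7 to 72.2) for X peaks upstream of 1 start, and 50.1 (48.2 to 52.5) for autosomal peaks away from starts. The interval of the single-start peaks overlapped those of the shared peaks and of the X peaks and lay above that of the peaks away from starts; these differences were not tested, since peaks are not replicates. Of the 100 strongest peaks in the list, 41 were single-start peaks, 23 were shared by several starts and 15 lay on autosomes away from starts.

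Every single-start peak overlapped a peak in the relaxed list of each replicate, which is a weak criterion because each of those lists held 30000 peaks. When the 2346 strongest peaks of each replicate were taken, 525 single-start peaks (81.4%, 78.2% to 84.2%) overlapped one in both replicates and 6 in neither. The share in both was 82.4% for shared peaks, 69.3% for autosomal peaks away from starts and 70.8% for X peaks upstream of 1 start. Ranks in replicate 1 and replicate 2 had a Spearman correlation of 0.792 over the 645 peaks, which share the same 2 libraries. Agreement between replicates was one of the criteria by which the authors made the list.

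**Figure D1:**
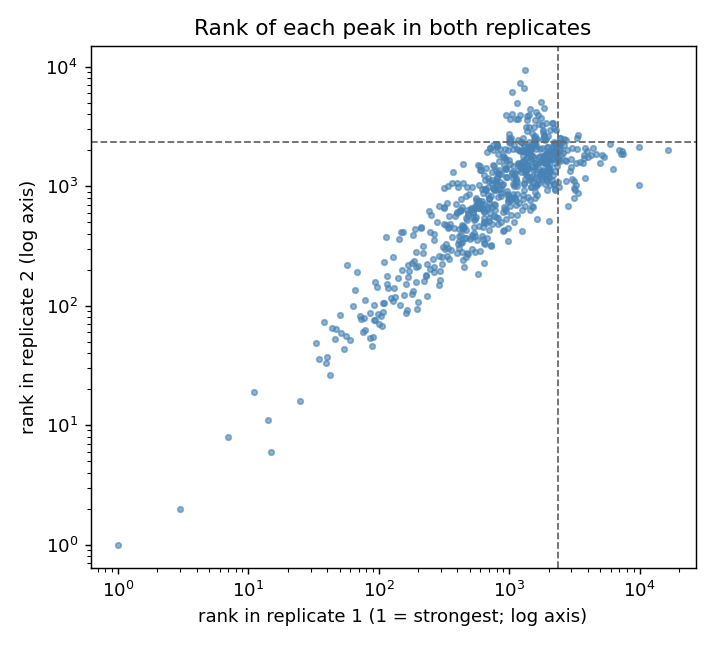
Rank of each of the 645 single-start peaks in replicate 1 (x axis) and replicate 2 (y axis), both on log axes with 1 the strongest. Each point is a peak, and the dashed lines mark rank 2346. The peak of rpl-3 sits at rank 1 on both axes, the points follow the diagonal more loosely with increasing rank, and 525 of the peaks lie inside both lines.

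Over all single-start peaks, summits were most frequent 101 to 200 bp upstream of the annotated start. The rule leaves out summits at or downstream of a start, and positions differed between starts with and without AG, as given below. The median position was -192 bp (95% interval -211 to -179), with quartiles of -306 and -127 and a range from -497 to -1. In steps of 50 bp, 47 summits lay 1 to 50 bp upstream, 68 lay 51 to 100 bp upstream, 106 lay 101 to 150 bp upstream and 115 lay 151 to 200 bp upstream. Beyond that, counts were 70, 71 and 69 in the next 3 steps and fell to 27 at 451 to 500 bp. The Spearman correlation of signal with distance was -0.00292 over the 645 peaks.

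Peaks nearest the start were those of rpn-11, which encodes the deubiquitinating subunit of the proteasome lid, at -1 bp with a signal of 97.0, of pgal-1 at -2 bp with 33.3 and of uvs-1 at -3 bp with 37.9. At the far end, knl-2, which acts in kinetochore assembly, had its summit at -497 bp with a signal of 41.0. The peaks of smo-1, which encodes the modifier SUMO, at -494 bp and of unc-85 at -490 bp had signals of 57.6 and 36.6. Just outside the limit, peaks of ubql-1 and mrps-18C at -504 bp and of acl-2 at -506 bp had signals of 114, 34.3 and 38.4. The median position therefore depends on the limit of 500 bp.

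The dinucleotide AG directly preceded the annotated start of 325 of the 642 genes, or 50.6% (46.8% to 54.5%). It did so at 27.7% (27.0% to 28.3%) of all 17242 autosomal protein-coding genes, at 27.8% of the autosomal genes with no other start within 500 bp, and at 47.9% of the genes at shared summits. The longer acceptor-like run TTTCAG preceded 26.8% of the starts of genes with a single-start peak and 12.3% of all autosomal starts. Genes with a single-start peak more often had an annotated 5′ UTR (93.1% against 75.9% of all), but among genes with such a UTR the AG shares were still 50.8% and 30.8%. Directly before the first coding base, AG was about as common in both groups, at 10.6% and 10.1%.

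Peaks at starts with AG lay farther upstream. Their median position was -232 bp (-248 to -214, 327 peaks), against -153.5 bp (-169 to -133) for the 318 peaks at starts without AG. The quartile nearer the start was -160 bp with AG and -75 bp without, so the scarcity of summits close to the start was seen mainly at starts with AG. AG preceded the start for 6.38% of the summits 1 to 50 bp upstream, for 14.7% of those 51 to 100 bp upstream, for 48.1% of those 101 to 150 bp upstream and for 74.3% of those 201 to 250 bp upstream. The share was lower farther out, at 66.2% for summits 251 to 300 bp upstream and 51.9% for those 451 to 500 bp upstream. Signal was alike, with medians of 64.2 and 63.0. The 4 strongest peaks within 100 bp of a start, those of tasp-1 (-60 bp), iff-2 (-68 bp), fbxl-2 (-80 bp) and Y94H6A.3 (-32 bp), all had a start without AG. In contrast rpl-35 and rps-28, with summits at -449 and -438 bp, both had one with AG. What the AG at a start says about the site of initiation was not measured here.

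**Figure D2:**
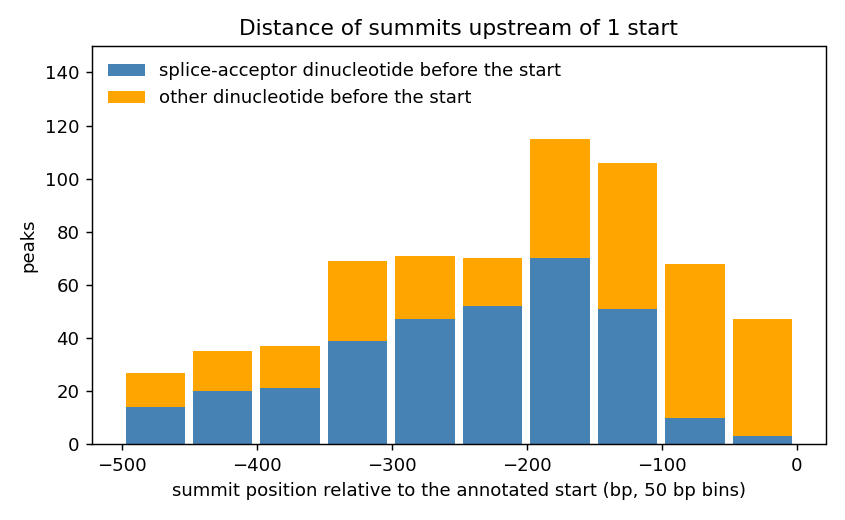
Number of single-start peaks (y axis) by summit position relative to the annotated start in bp (x axis, 50 bp steps), with peaks at starts directly preceded by the splice-acceptor dinucleotide in blue and all others in orange. The tallest column, 115 peaks, is 151 to 200 bp upstream, and blue makes up 6.38% of the column nearest the start and 74.3% of the column at 201 to 250 bp. In the column at 451 to 500 bp, blue makes up 51.9%.

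Most summits, 603 of 645 (93.5%), lay outside every annotated protein-coding gene. Another 29 lay in an intron of a neighbouring gene, 8 in a 3′ UTR, 4 in a 5′ UTR and 1 in a coding exon. Among the intronic ones was the peak at -279 bp from C47E8.4, with a signal of 293 and ranks of 39 and 33, whose summit lies in an intron of the chaperone gene hsp-90. Only protein-coding starts were counted in choosing these peaks. The start of another kind of gene, piRNA genes left aside, lay within 500 bp of 92 summits (14.3%, 11.8% to 17.2%). A gene of a small structural RNA lay within 100 bp of 23 summits (3.57%), comprising 11 with a tRNA gene, 10 with a snoRNA gene and 2 with an snRNA gene. These 23 lay at a median of -310 bp with a median signal of 46.2, against -188 bp and 63.6 for the other 622 peaks, and which gene each peak belongs to was not tested. The splicing factor gene snr-4 (summit at -341 bp, signal 199.8) was the stronger of the 2 with an snRNA gene nearby.

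Genes in these positions were 3.72% of the 17242 autosomal protein-coding genes, and 8.57% of those genes had any summit of the optimal list within 500 bp of their start on either side. By chromosome the share was 4.69% for I, 3.80% for II, 5.19% for III, 3.54% for IV and 2.46% for V. The number of peaks varied little between them (117 to 137), and chromosome V has more genes than the others. Of the 25 strongest single-start peaks, 9 were on chromosome III, as were 137 of all 645. The median signal on chromosome III was 62.8, against 63.4 for all single-start peaks.

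Genes for cytosolic ribosomal proteins and translation factors had shares whose intervals lay above the background of 3.72%. Of 79 autosomal genes for cytosolic ribosomal proteins, 22 (27.8%, 19.2% to 38.6%) had a single-start peak and 63 had any summit near the start. Their signals ran from 35.0 to 619.2 with a median of 103, led by rpl-3, rpl-35, rps-1 and rps-28 (244, ranks 56 and 56). Their summits lay at a median of -292 bp, and 20 of the 22 starts had AG. Among 38 genes for translation factors, 8 (21.1%, 11.1% to 36.3%) had one, with a median signal of 72.2. The strongest were iff-2, which encodes eIF5A (-68 bp, signal 307, ranks 42 and 26), eif-3.C of the eIF3 complex (-240 bp, 293, ranks 35 and 36), eif-3.B (-239 bp, 127) and eif-3.E (-187 bp, 91.7). The ribosomal proteins of mitochondria gave 5 of 70 (7.14%, 3.09% to 15.7%), an interval that includes the background, led by mrpl-28 at -124 bp with a signal of 167. Aminoacyl-tRNA synthetases gave 2 of 32 (6.25%, 1.73% to 20.1%), also around the background, namely mars-1 (-287 bp, signal 56.6, and -489 bp, 33.7) and kars-1 (-350 bp, 39.3).

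Genes for protein folding and turnover followed. Of 62 genes for chaperones and their partners, 7 (11.3%, 5.58% to 21.5%) had a single-start peak, and their median signal of 153 was the highest among the lists with at least 3 such genes. The peak of hsp-1, which encodes a constitutive Hsp70, lay at -374 bp with a signal of 228 and ranks of 50 and 83. The genes for the J proteins DNJ-9 and DNJ-13 had signals of 183 and 175, and pfd-6 of the prefoldin complex had 153. Proteasome genes gave 5 of 33 (15.2%, 6.65% to 30.9%), with signals from 48.9 for rpt-1 to 97.0 for rpn-11. The ubiquitin system gave 8 of 57 (14.0%, 7.29% to 25.3%), with signals between 63.2 for cul-3 and 139.9 for ubl-1.

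Genes of mitochondria and membrane traffic also had shares above the background, although the interval for the vacuolar ATPase included it. Of 64 genes for the respiratory chain, ATP synthase and their assembly, 9 (14.1%, 7.58% to 24.6%) had a single-start peak, led by the cytochrome c oxidase subunit genes cox-5A (-286 bp, signal 379.6, ranks 11 and 19) and cox-5B (-38 bp, 203). The cytochrome c1 gene cyc-1 followed at -307 bp with a signal of 163. Mitochondrial import gave 4 of 13 (30.8%, 12.7% to 57.6%), a small list whose peaks, at tomm-20, timm-23, tin-9.1 and timm-17B.1, had signals of 163, 124, 86.6 and 82.8 and all had starts with AG. Secretory pathway and Rab genes gave 11 of 82 (13.4%, 7.66% to 22.4%). Among them were sec-61.G, a subunit of the translocation channel (-225 bp, signal 290.0, ranks 40 and 37), the ESCRT genes vps-4 (166) and vps-37 (121), and the COPII coat gene sec-24.1 (150.5). The vacuolar ATPase gave 2 of 17 (11.8%, 3.29% to 34.3%), vha-9 with a signal of 66.9 and vha-16 with 43.9.

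In the nucleus, nuclear pore and transport genes gave 9 of 40 (22.5%, 12.3% to 37.5%), with signals of 118.8 for imb-3, 116 for ima-2, 109 for npp-8 and 93.5 for npp-18, and all 9 starts had AG. Splicing factors gave 5 of 38 (13.2%, 5.75% to 27.3%), with prp-8, which encodes a core protein of the spliceosome, at -325 bp and a signal of 108. RNA polymerase, TAF, Mediator and Integrator genes gave 7 of 67 (10.4%, 5.15% to 20.0%), led by rpb-11 (205), taf-4 (131) and mdt-22 (123). Histone genes, with 2 of 68 (2.94%, 0.810% to 10.1%), were near the background, and the peaks were at his-37 (-91 bp, signal 224) and at his-72, which encodes the replacement histone H3.3 (-127 bp, 60.8). Many histone genes are near-identical copies, at which reads may not be placed uniquely.

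Large families with roles in sensing, defence and the cuticle had few or no such peaks. None of 1331 chemoreceptor genes (upper bound 0.288%), 129 cuticle collagen genes (2.89%) or 106 neuropeptide genes (3.50%) had a single-start peak, and 4, 4 and 1 of them had any summit near the start. Of the 45 ceh homeobox genes none had one either, but that list is too short to be set apart from the background, with an upper bound of 7.87%, and 1 of them had any summit. The share was 4 of 310 for F-box genes (1.29%, 0.503% to 3.27%), 3 of 246 for nuclear hormone receptors (1.22%, 0.416% to 3.52%) and 2 of 237 for C-type lectins (0.844%, 0.232% to 3.02%). For cytochrome P450, UGT and GST genes it was 2 of 171 (1.17%, 0.321% to 4.16%), an interval that includes the background. Of the peaks in these families 3 had a signal above the median of 63.4. They were those of fbxl-2, which encodes an F-box protein with leucine-rich repeats (283, ranks 33 and 49), of nhr-49, a regulator of fat metabolism (121 at -351 bp), and of the glutathione S-transferase gene gst-27 (88.4 at -346 bp, with a snoRNA gene within 100 bp). The nearest optimal summit to ceh-82 itself (chrII:1732232-1733291) was 87.9 kb from its start, with a signal of 33.4. In all, 117 of the 642 genes (18.2%) were in a list and 172 (26.8%) had only a sequence name, so the lists describe a minority of the genes. No list was tested, and each list's count is set beside the background only.

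**Figure D3:**
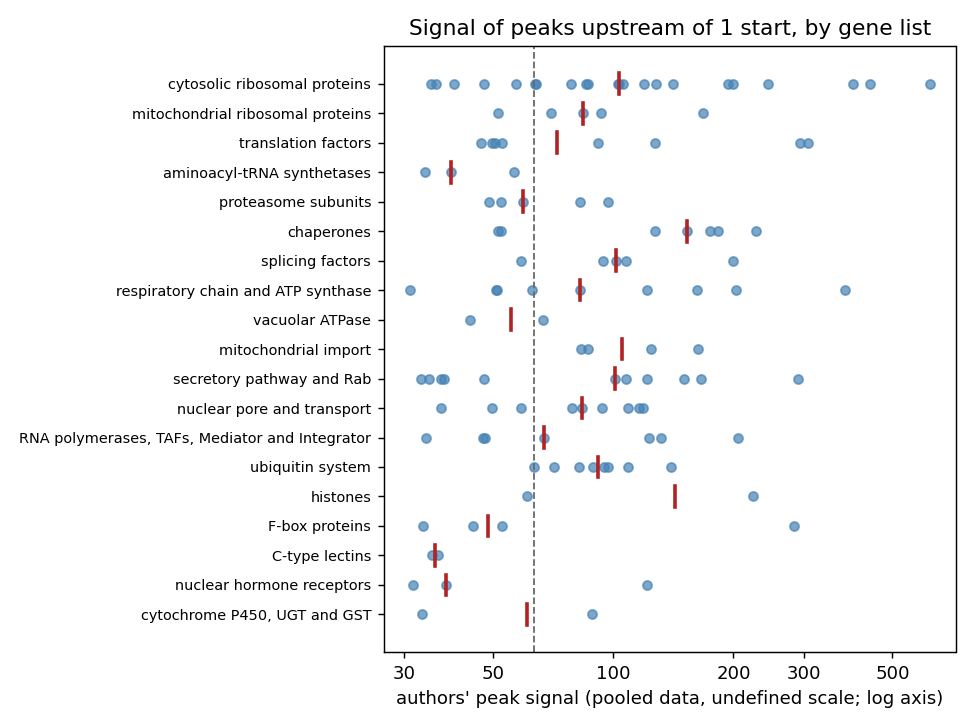
Deposited signal (x axis, log scale, undefined unit) of the single-start peaks of each gene list (y axis) with at least 1 such peak. Points are peaks, red bars the median of the list and the dashed line the median of all single-start peaks, 63.4. Cytosolic ribosomal protein genes span 35.0 to 619.2, and the 7 chaperone peaks have a median of 153.

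Genes with a single-start peak often had a close gene after them. A gene on the same strand began within 500 bp of the end of 211 of the 642 genes, or 32.9% (29.3% to 36.6%), against 19.3% (18.8% to 19.9%) of all autosomal protein-coding genes, 18.7% of those with no other start within 500 bp, and 34.4% of genes at shared summits. The median of these gaps was 112 bp, with quartiles of 97 and 220, and for all autosomal genes it was 182 bp. A gap of 90 to 130 bp, a range chosen after the values were seen, followed 92 genes (14.3%, 11.8% to 17.3%), against 5.01% of all. It followed 19.1% (13.8% to 25.9%) of the genes of the 162 strongest peaks and 9.94% (6.21% to 15.5%) of those of the 162 weakest. These intervals overlap, and the difference was not tested. Operon annotation was not used here, so a close gene is described by position alone.

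The strongest of these peaks show the arrangement. At tasp-1, the gene dpy-28 began 109 bp after its end. It encodes a condensin subunit that also serves in the dosage compensation complex. After sec-61.G, F32D8.13 began at 114 bp, after C34C12.8 the phosphatase gene pph-6 at 112 bp, and after rps-28 Y41D4B.4 at 112 bp. For eif-3.C (T23D8.3 at 110 bp, then tsp-7), sqd-1 (lsm-8 at 103 bp, then seu-1), ddp-1 (ttc-7 at 47 bp, then smi-1) and tba-2, an alpha-tubulin gene (C47B2.2 at 94 bp), the row held more than 1 close gene. The gap was longer for eelo-2, with the TFIIE subunit gene gtf-2E1 at 336 bp. Over all 211 genes the close downstream start had AG in 53.6%, against 62.8% for the close downstream genes of genes at shared summits and 37.0% for those of all autosomal genes.

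Rows of close genes were mostly short: 147 of the 642 genes had 1 close downstream gene, 44 had 2 in a row, 13 had 3 and 7 had at least 4. The longest, with 5, followed rsp-6, which encodes an SR splicing factor (signal 94.3; imp-3, tag-322, tag-321, sec-10 and rpap-3), ztf-7 (115) and ril-1 (31.4). The H3K4 methyltransferase gene set-2 (41.0) was followed by mmab-1, ula-1, rpb-8 and rars-1, and the superoxide dismutase gene sod-1 (38.6) by art-1, C15F1.5, eif-2Bgamma and tra-2. Of the 211 close downstream genes, 11 had an optimal summit near their own start (5.21%, 2.94% to 9.09%). That is near the 4.98% for the close downstream genes of all autosomal genes. Peaks of genes with a close downstream gene had a median signal of 69.2 (61.4 to 78.1, 212 peaks), against 58.9 (55.4 to 67.0) for the other 433.

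Close genes before the start were of another kind. A gene on the same strand ended within 500 bp upstream of 139 genes, or 21.7%, which is near the 19.4% of all autosomal genes and the 21.5% of those with no other start within 500 bp. Their gaps were longer, with a median of 309 bp and quartiles of 223 and 419, against a median of 183 bp for all. A gene ended within 250 bp of 43 (6.70%), against 11.9% of all autosomal genes, and a gap of 90 to 130 bp preceded 4 (0.623%, 0.243% to 1.59%), against 4.99%. The rule keeps out summits with another start within 500 bp, so it and the gaps are not independent. In 129 of the 139 cases (92.8%) the summit lay between the end of the upstream gene and the start.

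The strongest with a close upstream gene were eelo-2 (ZK550.2 ending 380 bp away, signal 358), eif-3.C (sys-1, a beta-catenin, 400 bp), fbxl-2 (rbg-3, 238 bp) and C34C12.8 (C34C12.2, 294 bp). Next came dld-1, which encodes dihydrolipoamide dehydrogenase (nspg-9, 418 bp, signal 261), bag-1, an Hsp70 cochaperone (mei-2, 297 bp, 258), ddp-1 (hlh-33, 285 bp, 251), icd-2 of the nascent polypeptide-associated complex (psf-3, 446 bp, 244), tba-2 (the proteasome gene pbs-2, 420 bp, 238) and his-37 (C50F4.6, 263 bp, 224). None of these 10 had a gap under 200 bp. Of the 139 close upstream genes, 8 had a single-start peak themselves and 18 (12.9%) had any optimal summit near their start, against 14.9% of the close upstream genes of all autosomal genes. The 14 cases with a gap of at most 130 bp included Y39B6A.43 (75 bp after Y39B6A.42, signal 223, summit at -36 bp) and sir-2.1 (103 bp after pges-2, 37.7). They also included pinn-1 (108 bp after sqv-2, 189), whose summit at -383 bp lay in an intron of sqv-2. For pbs-3 (22 bp after ulp-2, 82.7), the summit at -137 bp lay in the 3′ UTR of ulp-2. For 62 genes (9.66%) there was a close gene on both sides, against 5.19% of all.

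**Figure D4:**
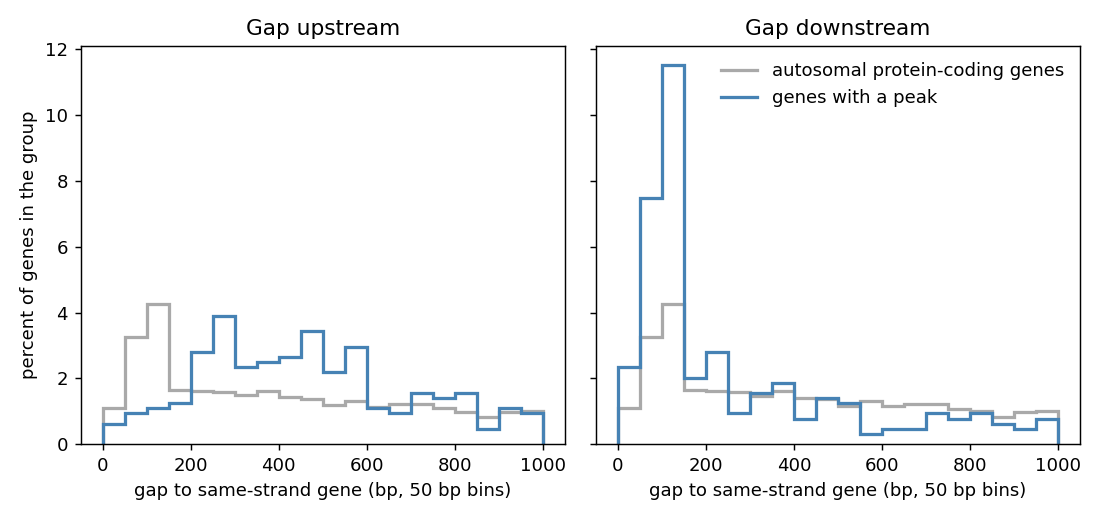
Percent of genes (y axis) by the gap in bp to the nearest gene on the same strand (x axis, 50 bp steps), upstream on the left and downstream on the right, for the 642 genes with a single-start peak (blue) and all 17242 autosomal protein-coding genes (grey). Blue exceeds grey downstream at short gaps, where 14.3% against 5.01% of genes have a gap of 90 to 130 bp, and lies below it at the same gaps upstream, with 0.623% against 4.99%.

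The DNA under the summits was compared with 17242 windows of the same length centred 192 bp upstream of every autosomal start and with the windows of the other 1701 optimal peaks. GC content averaged 47.3% in the 645 windows, 48.7% at the other peaks and 34.0% at the starts. TAATTA, a core that many homeodomains recognise, was present on either strand in 1.86% of the windows, in 0.705% of those of other peaks and in 5.89% of the start windows. Of the other 6-mers searched on both strands, GAGAGA was in 22.5%, 33.3% and 7.32%, TGATAA in 1.86%, 1.88% and 11.0%, and CACGTG in 3.41%, 3.23% and 1.57%. The part of GC content in these differences was not tested.

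Of all 2080 6-mers, each counted together with its reverse complement, GACGCA exceeded the start windows most, with 155 of 645 windows (24.0%, 20.9% to 27.5%) against 3.15%. It was in 20.2% of the windows at other peaks. CGCAAA was chosen as the 6-mer that exceeded the other peaks most among those above the start windows: it was in 135 windows (20.9%, 18.0% to 24.2%), in 9.52% of the windows at other peaks and in 5.11% of the start windows. At least 1 of these 6-mers was in 258 windows (40%). Both were picked from these windows, so their shares are a description. They can also overlap each other, as at rpl-3.

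CGCAAA and GAGAGA were spread over the classes of peaks in opposite ways. CGCAAA was in 20.9% of single-start windows and 19.7% (16.0% to 24.0%) of windows shared by several starts, but in 5.90% (4.48% to 7.73%) of autosomal windows away from starts and 9.17% (5.20% to 15.7%) of X windows upstream of 1 start. GAGAGA was in 22.5%, 13.6%, 43.5% (40.1% to 46.9%) and 39.2% (30.9% to 48.1%) of the same classes. GACGCA varied less, with 24.0%, 16.0%, 24.3% and 18.3%. Among the single-start peaks, the 162 strongest held CGCAAA in 30.2% of windows and GAGAGA in 13.6%, and the 162 weakest in 14.2% and 22.2%. GCGTCA, picked as the 6-mer with the widest such contrast, was in 22.8% (17.0% to 29.9%) of the strongest and 3.09% (1.33% to 7.02%) of the weakest. Mean GC content was 49.7% and 46.2% in these sets, and its part in the contrast was not tested.

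**Figure D5:**
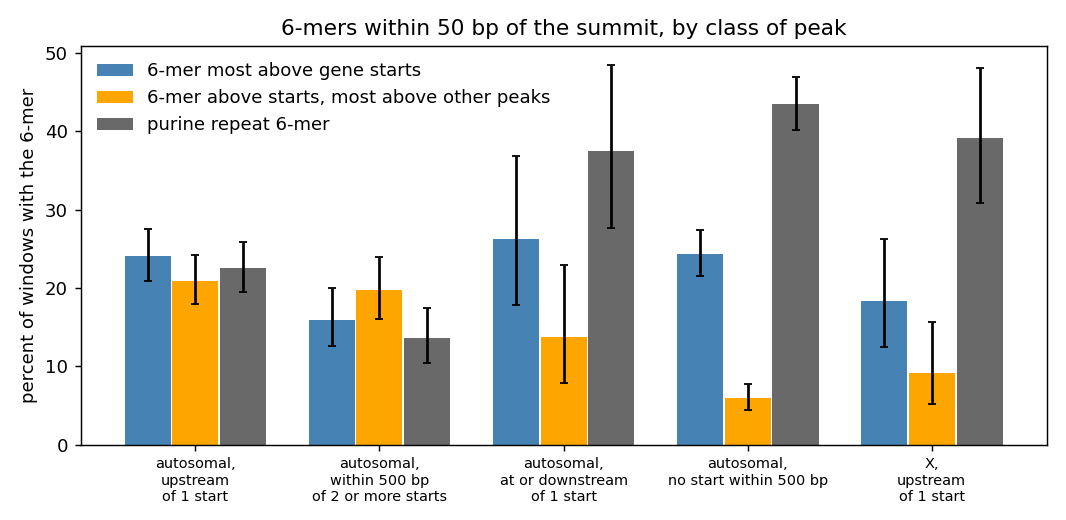
Percent of windows of 50 bp either side of the summit that hold each of 3 6-mers on either strand (y axis, bars with 95% Wilson intervals), by class of peak (x axis). Blue is the 6-mer most above the start windows (24.0% of single-start windows), orange the one most above the other peaks among those also above the start windows (20.9%) and grey GAGAGA (22.5%); orange is lower and grey higher at autosomal peaks away from starts (5.90% and 43.5%) than at single-start peaks.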

How the data were processed

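The authors deposited peak lists on ce10 and ce11. Per the deposited file descriptions, relaxed lists were made for each replicate and for the pooled data against a control alignment, and the optimal list was derived from them by the irreproducible discovery rate (IDR). The signal value of each peak is the authors' own, as deposited. The aligner, peak caller and IDR threshold are not given in the sources used here, the depth is unknown, and intervals on shares (95% Wilson) cover counting error only.

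Only the ce11 optimal list and the 2 replicate lists were used. A rank is that of the strongest relaxed peak overlapping the member. Starts and gaps came from Ensembl release 115 and sequences from the RefSeq WBcel235 genome. The analysis used Python 3.11.15, NumPy 2.4.6, SciPy 1.17.1 and matplotlib 3.10.9, and the classification of peaks was checked on simulated annotation. Gene lists were built from symbol patterns: that for chemoreceptors also takes symbols such as srf and srp, and that for the respiratory chain also takes assembly factors.

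The members, lists and 6-mers were chosen with earlier results of these data known. The gap class of 90 to 130 bp, the 6-mers GACGCA and CGCAAA as well as GCGTCA, the strongest and weakest 162 peaks and the symbol families were chosen after the values were seen, as were the examples of peaks in introns, near small RNA genes, with gaps of at most 130 bp and with the longest rows of genes. Named genes were those of the 25 strongest peaks, up to 4 per list, the 3 nearest and 3 farthest and the 3 just outside, those with several peaks, the 10 strongest with a close gene upstream and downstream, and ceh-82; 1 gene that this rule names is not reported here. Alternatives changed the distance and gap limits, the set of starts, the signal needed, the window and the replicate used.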

Additional observations from a re-analysis of the deposited data

How the results depend on the processing

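Of 52 values obtained under alternatives, 31 stayed within the tolerance set for them. With starts within 250 bp, the share of optimal peaks was 23.4%, the median position -145 bp and the share of genes with AG 44.7%; at 1000 bp the median position was -252 bp. The share of optimal peaks was 30.3% with all transcript starts, 23.6% with the starts of all genes except piRNAs, and 31.6% in the stronger part of the list, which held 371 single-start peaks. Close upstream genes made up 6.70% with a gap limit of 250 bp and 35.7% with 1000 bp, and close downstream genes 26.2% and 39.7%. AG before the first coding base was 10.6%. Windows of 25 and 100 bp held TAATTA in 0.465% and 7.13%, GAGAGA in 11.9% and 34.4%, TGATAA in 0.775% and 7.44%, and CACGTG in 1.86% and 5.74%. For the AG share at 250 bp and the share of peaks in the stronger part of the list the cause was not tested.

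With each replicate left out in turn, using the strongest peaks of the other, there were 634 to 635 single-start peaks (27.0% to 27.1%) at a median of -194 bp, and close upstream genes were 22.6% to 23.5%, close downstream genes 33.2% to 34.5% and AG 48.8% to 49.7%. No paired analysis was possible because the series has 1 group. Depth is unknown, so what it limits cannot be stated, and signal without replicate error only orders peaks within the list.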

Other observations

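Several symbol families outside the gene lists also had genes with a single-start peak. They were picked for their counts and were not tested, and 3.72% of all autosomal genes had such a peak. Of 8 autosomal mcm genes, whose products act in the licensing and start of DNA replication, 4 had one: mcm-10 (-299 bp, signal 49.8), mcm-4 (-172 bp, 49.7), mcm-2 (-271 bp, 39.4) and mcm-7 (-147 bp, 36.2). All 4 starts had AG, and all 4 signals lay below the median of 63.4. Of 41 lin genes 7 had one, led by lin-9 (-154 bp, signal 182, ranks 94 and 157), which encodes a subunit of the DREAM complex, and lin-36 (-249 bp, 110, ranks 366 and 378). Among 78 unc genes, a family named for a movement defect and mixed in function, 11 had one, the strongest being unc-16, a JIP3-type scaffold (-102 bp, 94.7), unc-23, a BAG-domain cochaperone (-70 bp, 92.2), and unc-108, a Rab2 GTPase (-74 bp, 76.2). The cyclophilin genes cyn-1, cyn-3 and cyn-10, 3 of 15, had signals of 113, 105 and 72.9.

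The 3 genes with 2 single-start peaks had them about 200 bp apart. The summits of eat-16 lay at -488 bp (signal 70.5) and -288 bp (42.6), those of mars-1 at -287 bp (56.6) and -489 bp (33.7), and those of unc-85 at -251 bp (39.8) and -490 bp (36.6). In both replicates the strongest relaxed peak that overlapped each of the 2 peaks of a gene was the same one. Whether a weaker relaxed peak also lay there was not examined.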
